A study of Mus musculus with 4 samples.

Results

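Hepatic heme synthesis and heme breakdown were examined through 9 genes of the 21655 protein-coding genes to which assembled loci could be assigned. The genes were chosen by name, in pathway order: Alas1, Alad, Uros, Urod, Cpox, Ppox and Fech for synthesis, and the heme oxygenases Hmox1 and Hmox2 for breakdown. Their loci were found by overlap with their GRCm38 exons. The libraries held 70 loci over these exons, 23 and 14 in the knockout libraries and 16 and 17 in the wild type libraries, and 47 of them gave the values below, 4 of these being the loci that Hmox2 shares with a neighbour.

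The material was liver RNA of male C57BL/6 mice. The 2 HJV_KO libraries came from mice homozygous for a disrupted hemojuvelin gene (Hjv), and the 2 WT libraries from wild type mice. Hemojuvelin is a co-receptor through which hepatocytes sense bone morphogenetic proteins and induce hepcidin, the hormone that limits iron release into plasma. Both genotypes were on the soy-free AIN-93G diet with low iron, 2.5 mg per kg of food, which began at 5 weeks of age and lasted 50 days, with harvest at 12 weeks. There was no iron-sufficient group among these libraries, so every value below is from animals on a low-iron diet. The labels name no tissue to which the disruption is limited. Whether each library is its own animal is not stated in the labels, so spread and p-values are those of these libraries and may be technical.

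Heme is made from glycine and succinyl-CoA by a chain of enzymes that starts and ends in mitochondria and passes through the cytosol. In liver the first enzyme, encoded by Alas1, sets the rate and is held down by heme itself, and much of the product goes into cytochromes P450. The last enzyme, ferrochelatase, inserts iron into protoporphyrin. Heme oxygenases open the ring and release iron, carbon monoxide and biliverdin, with Hmox1 inducible by heme and oxidative stress and Hmox2 largely constitutive.

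Levels are given as FPKM (mapped fragments relative to transcript length and library depth) after scaling of the 4 libraries to a common level. Libraries held 55.0 and 132 M fragments in HJV_KO and 87.0 and 51.3 M in WT, if a step between deposited confidence bounds is 1 fragment. The genotype labels were checked first. Hjv (named Hfe2 in the annotation) was not assembled in knockout replicate 1 and had 0.236 scaled FPKM in replicate 2 of that genotype, against 9.22 and 29.6 in the wild type libraries. Hepcidin (Hamp) had no locus and 1.62 in the knockout libraries, against 22.0 and 100 in wild type. The transferrin receptor Tfrc had 2.73 and 2.03 in knockout, against 15.5 and 11.3 in wild type. A missing locus is not a level of 0, since albumin (Alb), among the most abundant liver transcripts, had no locus in any library. Of the other 11 hepatocyte markers 10 had a used locus in at least 1 library, and 7 were tested. The summed levels of the 7 were 8954 and 11393 in knockout and 8401 and 8066 in wild type. These markers did not move together. Knockout was higher without overlap for 2 of the 7, Apoa1 and Ahsg, and lower for 2, Ass1 and Tat, while 3 overlapped. The median log2 difference was -0.12, and it ran from -0.70 to 0.08 over 20 alternatives. Apoa1 had 3421 and 5010 in knockout, against 2643 and 1601 in wild type. Tat had 246 and 239 in knockout, against 456 and 407 in wild type.

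Promoter windows of 3 of the genes are printed below, 1 for each. The assembled transcript of Alas1 began inside its printed window in 3 of 4 libraries, and a second Alas1 window, further upstream, was covered in no library. The loci of Alad and Cpox ran through theirs in knockout replicate 2, the deepest library. Promoter windows of 300 bases (250 before and 50 after an annotated start) were taken from RefSeq on GRCm38.p6, where 7 of the 9 genes matched with 12 windows. Loci also ran through windows that are not printed. These were a second Alad window in knockout replicate 2, a Uros window in both knockout libraries and wild type replicate 2, and the Hmox2 windows in every library. Each is written 5′ to 3′ on the strand of its gene. Capitals mark matches, on either strand, to GCGCATG (the core of the nuclear respiratory factor 1 site), GGGCGG (a GC box), CACGTG (an E-box) or AGATAA (the site of the erythroid factor GATA1 and its relatives).

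Alas1, chr9:106247681-106247980, minus strand: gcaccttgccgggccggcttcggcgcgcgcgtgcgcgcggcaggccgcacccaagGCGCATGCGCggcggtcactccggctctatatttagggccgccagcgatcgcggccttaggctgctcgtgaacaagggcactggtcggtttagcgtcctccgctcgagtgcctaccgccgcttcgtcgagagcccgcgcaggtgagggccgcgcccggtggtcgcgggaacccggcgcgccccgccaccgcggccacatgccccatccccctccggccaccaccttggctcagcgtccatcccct

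Alad, chr4:62519860-62520159, minus strand: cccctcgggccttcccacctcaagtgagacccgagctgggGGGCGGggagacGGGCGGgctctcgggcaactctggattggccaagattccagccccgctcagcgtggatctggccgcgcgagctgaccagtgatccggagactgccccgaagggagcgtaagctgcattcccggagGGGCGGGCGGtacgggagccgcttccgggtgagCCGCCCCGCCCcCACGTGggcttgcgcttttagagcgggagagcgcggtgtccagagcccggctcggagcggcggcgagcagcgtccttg

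Cpox, chr16:58669958-58670257, plus strand: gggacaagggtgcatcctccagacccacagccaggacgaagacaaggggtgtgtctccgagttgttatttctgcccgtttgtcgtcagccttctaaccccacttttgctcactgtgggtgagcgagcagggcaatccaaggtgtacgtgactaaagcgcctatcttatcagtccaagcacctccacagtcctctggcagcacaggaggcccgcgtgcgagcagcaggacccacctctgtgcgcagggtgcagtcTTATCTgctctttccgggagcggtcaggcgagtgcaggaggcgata

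The Alas1 window held 2 matches to GCGCATG, on opposite strands and overlapping in 1 palindrome, and 3.91% of 32851 RefSeq mouse promoter windows of this length hold at least 1. The printed Alad window held 6 matches to GGGCGG, some of them overlapping, and 1 to CACGTG. The second Alad window, which overlaps it, held 2 and 1. Of all windows, 35.7% hold at least 1 GGGCGG and 7.15% at least 1 CACGTG. The Cpox window held 1 match to AGATAA, written there on the other strand, against 11.2% of all windows. These matches describe the letters of the windows and are not evidence of binding.

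Levels differed more between the genes than between the genotypes. In HJV_KO the order by mean scaled FPKM, which is a level per length of transcript, was Alas1, Fech, Cpox, Alad, Hmox2, Urod, Hmox1, Uros and Ppox. In WT it was Alas1, Cpox, Fech, Urod, Hmox2, Hmox1, Alad, Uros and Ppox. Neighbours overlapped between libraries from Fech to Urod in HJV_KO. In WT the overlapping neighbours were Alas1 with Cpox, Cpox with Fech, Urod with Hmox2, Alad with Uros, and Uros with Ppox. Alas1 ranked first in every library except wild type replicate 2, where it ranked 4, and Ppox ranked last in every library except wild type replicate 2, where Uros did. Alad had the least stable place, ranking 6 and 2 in the knockout libraries and 7 in both wild type libraries.

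**Figure D1:**
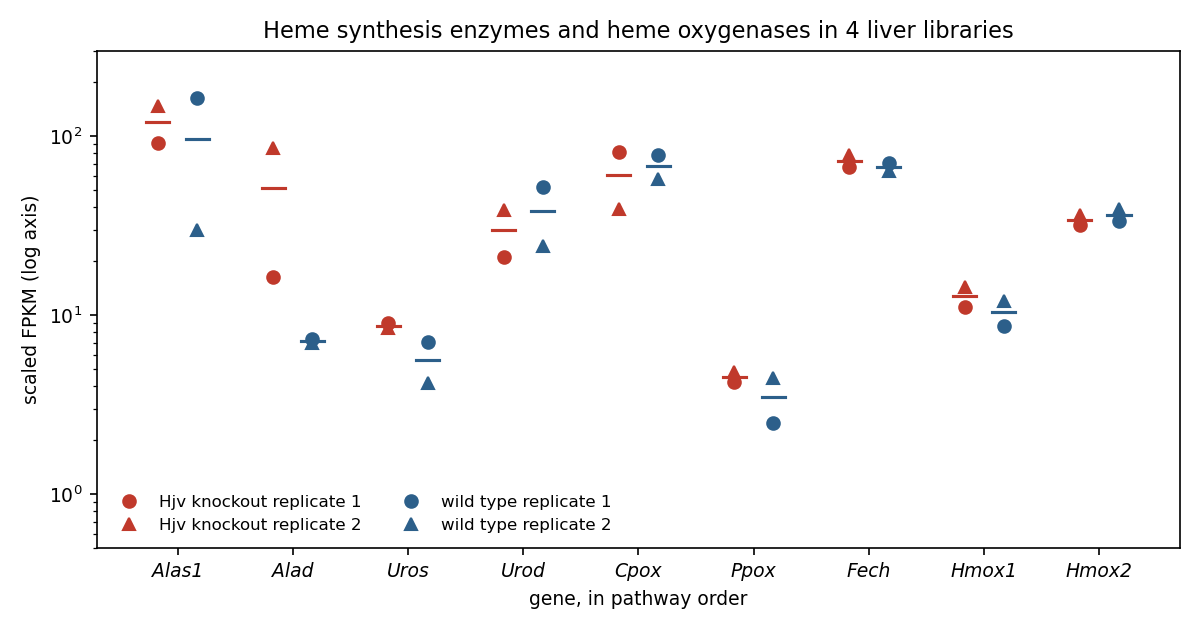
Scaled FPKM of each gene (log axis) in the 4 liver libraries, Hjv knockout in red to the left of wild type in blue, with circles for replicate 1, triangles for replicate 2 and a line at the mean of each pair. Alad is the 1 gene with a gap between the genotypes that is wide on this axis, 16.3 and 86.0 in knockout against 7.39 and 6.95 in wild type, while Alas1 spans 163 to 30.0 within wild type.

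At the adjusted threshold no heme gene was called. By limma, 0 of the 7926 genes tested had an adjusted p under 0.05 (0%), and the smallest adjusted p of any gene was 0.166. Without adjustment, 464 genes (5.85%) were higher and 422 (5.32%) lower in knockout at p under 0.05. Of the 9 heme genes 8 were tested by the rule, and 1 of them, Alad, was higher at an unadjusted p under 0.05. For Alad that limma p was 0.0861 with all loci, and it was 0.0718 when the first wild type library was left out and 0.0783 when the second was. For 2 of the 8, Alad and Uros, the knockout libraries both exceeded the wild type libraries, for 0 they were both below, and 6 overlapped. Over all genes tested, 22.3% lay above in this sense and 23.8% below. The log2 difference was above 0 for 6 of the 8, beside 52% of all genes tested, and the median of the 8 was 0.31, beside 0.02 over all genes tested.

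Alas1 encodes 5-aminolevulinate synthase 1, the rate-setting mitochondrial enzyme of hepatic heme synthesis. It had 91.2 and 148 scaled FPKM in the knockout libraries, against 163 and 30.0 in the wild type libraries. The wild type libraries enclosed both knockout libraries, with replicate 1 the highest of the 4 and replicate 2 the lowest. The means were 120 ± 40.3 in HJV_KO and 96.7 ± 94.4 in WT (SD, n = 2 each). The log2 difference was 0.72 with an SE of 0.82 and a 95% interval of -1.41 to 2.84 (limma adjusted p = 0.743). Its direction depended on 1 library, at -0.49 without replicate 2 of wild type and 1.92 without replicate 1.

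The difference within wild type was larger than for nearly all other genes. Wild type replicate 1 had 5.45 times the level of replicate 2, and the size of this difference on the log2 scale lay at the 99.8th percentile of the genes tested. The deposited confidence bounds of the Alas1 locus (chromosome 9, gene at 106233455 to 106248654) had half-widths of 1.48% to 4.31% of their midpoint. The assembled locus was 1 piece of 13634 to 13893 bases in each library, and started 1028 bases inside the annotated gene in wild type replicate 2 and 770 to 795 bases inside it in the other libraries. Its value lay above its own bounds in all 4 libraries, at 1.06 to 1.09 times their midpoint.

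Genes whose profile over the 4 libraries was most like that of Alas1, by the smallest Euclidean distance of centred log2 values, were Gm9803, Echdc2 and Fastk. Gm9803 is a predicted gene. Echdc2, a member of the enoyl-CoA hydratase family, had 36.0 and 48.5 scaled FPKM in knockout and 39.4 and 9.56 in wild type. Fastk, of the FAST kinase family of mitochondrial RNA-binding proteins, had 8.60 and 19.1 in knockout and 21.4 and 4.36 in wild type. The distances were 0.47 to 0.52 on the log2 scale, over 4 libraries.

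Alad encodes delta-aminolevulinate dehydratase, the cytosolic zinc enzyme that joins a pair of aminolevulinate molecules into porphobilinogen. It had 16.3 and 86.0 scaled FPKM in the knockout libraries, against 7.39 and 6.95 in the wild type libraries. The knockout libraries both exceeded the wild type libraries, which were nearly equal, and knockout replicate 2 stood far above the other 3. The means were 51.1 ± 49.3 in HJV_KO and 7.17 ± 0.310 in WT (SD, n = 2 each). The log2 difference was 2.25 with an SE of 0.77 and a 95% interval of 0.26 to 4.24, with an unadjusted p of 0.0337 and an adjusted p of 0.437 by limma. It lay at the 99.8th percentile of the log2 differences of all genes tested.

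The size of the Alad difference depended on the knockout library. It was 1.08 without knockout replicate 2 (limma adjusted p = 0.132) and 3.41 without knockout replicate 1 (limma adjusted p = 0.0211), where the lone knockout library was assumed to vary like the wild type pair. In that last comparison 485 genes were called, 357 higher and 128 lower. Knockout replicate 2 had 5.29 times the level of knockout replicate 1, a difference at the 99.5th percentile of the genes tested. Over the genes tested, which are not independent, the log2 ratio of replicate 2 to replicate 1 followed the GC content of the transcript, with a Spearman correlation of 0.48 in knockout and 0.26 in wild type. The Alad transcript has a GC content of 58.5%, at the 94.98th percentile. After correction for GC content the log2 difference was 1.77. The part of GC content in the remaining difference between the knockout libraries was not tested.

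The Alad locus (chromosome 4, gene at 62509169 to 62519918) also differed in extent. In all 4 libraries it ran 4070 to 4634 bases past the annotated end of the gene, into sequence with no annotated coding gene. In knockout replicate 2 it also began 539 bases before the annotated start, so that it covered all 300 bases of the window printed above. The loci of the other 3 libraries covered 28, 23 and 5 bases of it, in knockout replicate 1 and in wild type replicates 1 and 2. Knockout replicate 2 was also the deepest library, at 132 M fragments against 51.3 to 87.0 M by the estimate above. It had the fewest used loci per gene, 1.48 against 1.72 to 2.15. The part of depth and assembly in the longer locus was not tested. Each library had 1 Alad locus, and its deposited FPKM lay within its own bounds in all 4 libraries. The half-widths of the bounds were 2.13% to 5.87%.

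**Figure D2:**
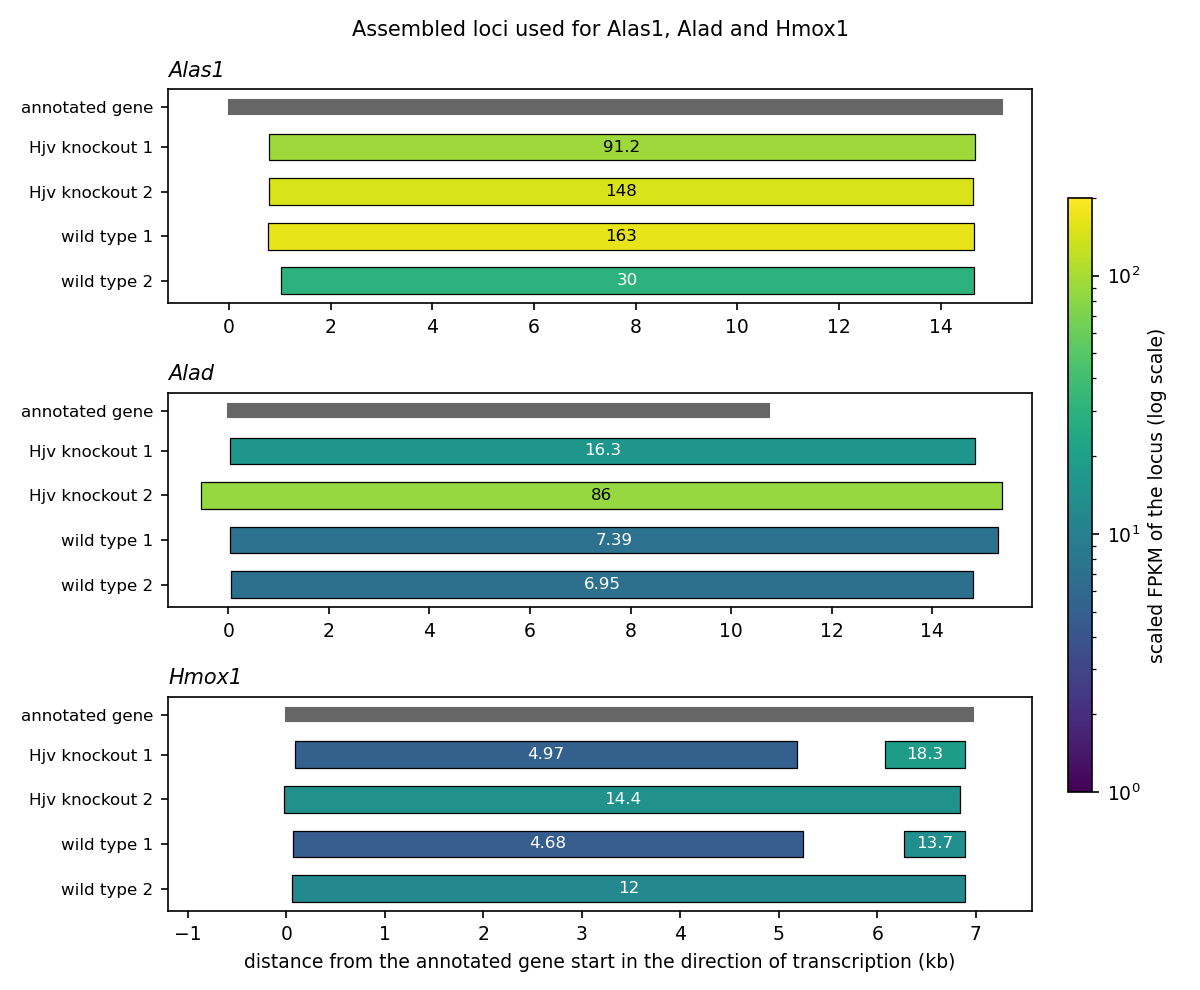
Assembled loci used for Alas1, Alad and Hmox1 in each library, drawn by distance in kb from the annotated gene start in the direction of transcription, with the annotated gene in gray above and the scaled FPKM of each locus written on it and shown by color (log scale). Alad reaches past its annotated end in every library and starts before the annotated start in knockout replicate 2, and Hmox1 is split into 2 pieces in replicate 1 of each genotype.

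The next enzymes act on the porphyrinogen ring. Uros, uroporphyrinogen III synthase, which closes the ring, had 8.97 and 8.44 scaled FPKM in the knockout libraries, against 7.04 and 4.16 in the wild type libraries. The knockout libraries both exceeded the wild type libraries, by a gap smaller than that between the wild type libraries. For Uros the log2 difference was 0.59, with an SE of 0.27 and a 95% interval of -0.12 to 1.30 (limma adjusted p = 0.490). It was above 0 in all 20 alternatives, at 0.27 to 0.91. In knockout replicate 2 and wild type replicate 1 the main locus lacked the annotated 5′ end, starting 7194 and 7610 bases inside the gene.

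Urod, uroporphyrinogen decarboxylase, had 20.98 and 38.4 scaled FPKM in the knockout libraries, against 52.2 and 24.3 in the wild type libraries. The groups overlapped, with the highest and the second lowest value in wild type. The log2 difference of -0.32 had an SE of 0.47 (limma adjusted p = 0.810), and it turned to 0.22 without wild type replicate 1 and to 0.11 without knockout replicate 1. The difference within the wild type pair lay at the 98.3rd percentile. It had the sign of that of Alas1, with wild type replicate 1 above replicate 2, and in the knockout pair too both genes were lower in replicate 1.

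Cpox, the mitochondrial coproporphyrinogen oxidase, had 81.7 and 39.1 scaled FPKM in the knockout libraries, against 78.8 and 57.8 in the wild type libraries. Here the knockout libraries enclosed the wild type libraries. The log2 difference of -0.25 had an SE of 0.40 (limma adjusted p = 0.827) and became 0.27 without knockout replicate 2. In that library, the deepest, the Cpox locus started 1813 bases before the annotated gene start at 58670292 on chromosome 16. It covered the whole window printed above, while the loci of the other libraries covered none of it. The part of depth in this was not tested. Ppox, protoporphyrinogen oxidase, had the lowest mean in both genotypes, with 4.25 and 4.79 scaled FPKM in knockout against 2.48 and 4.46 in wild type. The groups overlapped, and the log2 difference was 0.34 with an SE of 0.28 (limma adjusted p = 0.651). The Ppox value came from 3 pieces in knockout replicate 1, at 6.66, 2.40 and 0.894 scaled FPKM. In knockout replicate 2 it came from 2, at 5.22 and 1.26, and in each wild type library from 1. A locus near the 3′ end, shared with B4galt3, was not used in any library. The part of this splitting in the difference was not tested.

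Fech, the ferrochelatase that inserts iron into the ring, had 67.4 and 78.1 scaled FPKM in the knockout libraries, against 70.9 and 63.5 in the wild type libraries. All 4 libraries were close, and the groups overlapped. The means were 72.8 ± 7.62 in HJV_KO and 67.2 ± 5.22 in WT (SD, n = 2 each). For Fech the log2 difference was 0.11, with an SE of 0.19 (limma adjusted p = 0.838) and a 95% interval of -0.38 to 0.61. It was 1.26 where short loci far above their own bounds were kept (its limma adjusted p was 0.502 or higher in all alternatives). The gene lies on chromosome 18, and of the loci used each library had 1 long one over it and 1 or 2 short pieces. Knockout replicate 1 had 3 further short loci there, left out because their values lay far above their bounds.

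**Figure D3:**
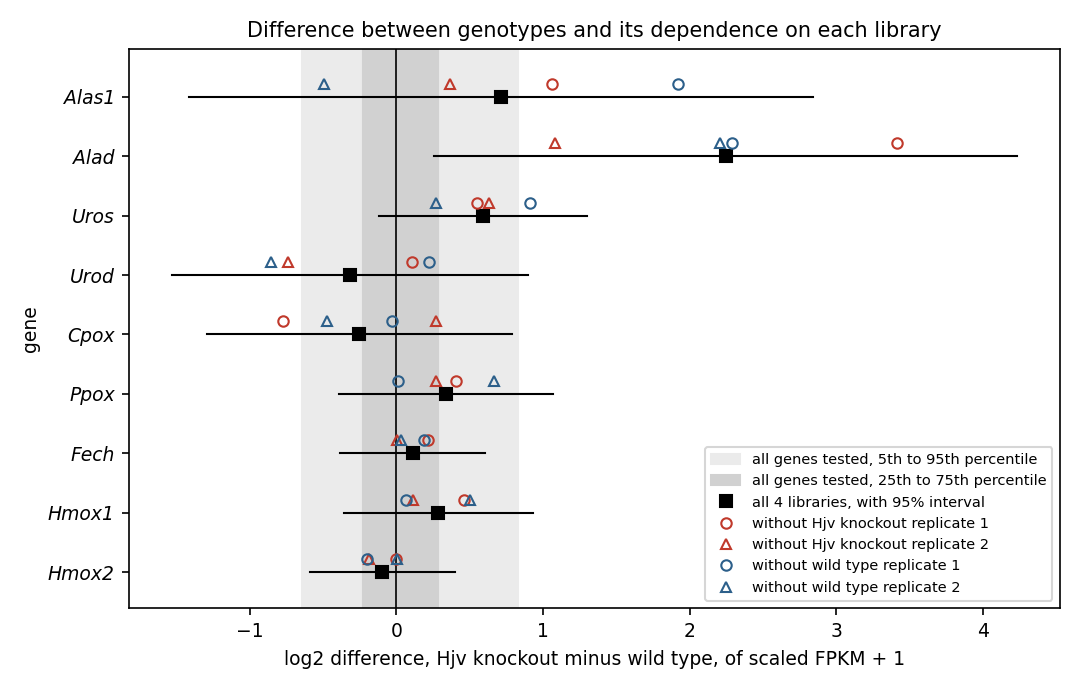
Log2 difference between Hjv knockout and wild type for the 9 genes (squares, with 95% intervals from limma) and the same without each library in turn (open symbols), over shaded bands for all genes tested. The interval of Alad, 0.26 to 4.24, is the 1 that leaves out 0, and the open symbols of Alas1 lie on both sides of 0, from -0.49 to 1.92.

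For both heme oxygenases the 95% interval of the log2 difference between the genotypes held 0. Hmox1, the inducible enzyme, had 11.1 and 14.4 scaled FPKM in the knockout libraries, against 8.65 and 12.0 in the wild type libraries. The groups overlapped, with replicate 2 above replicate 1 in each genotype. The means were 12.8 ± 2.32 in HJV_KO and 10.3 ± 2.39 in WT (SD, n = 2 each). The log2 difference was 0.29 with an SE of 0.25 and a 95% interval of -0.36 to 0.93 (limma adjusted p = 0.660). It stayed above 0 in all 20 alternatives, at 0.07 to 0.50.

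The Hmox1 gene (chromosome 8, 75093621 to 75100589) was assembled unequally. In replicate 1 of both genotypes it came in 2 pieces, of 4.97 and 18.3 scaled FPKM in knockout and 4.68 and 13.7 in wild type for the 5′ and the 3′ piece. In replicate 2 of both genotypes it came as 1 locus. The value of a split gene is the mean of its pieces weighted by exonic bases, and its part in the order of the replicates was not tested. Genes with the profile most like that of Hmox1 were Kxd1, a lysosome positioning factor, Zfp710, a zinc finger protein, and Mtg1, a mitochondrial ribosome GTPase, at distances of 0.04 to 0.06. Kxd1 had 16.0 and 21.1 scaled FPKM in knockout, against 12.9 and 17.2 in wild type.

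Hmox2, the constitutive enzyme, could not be valued by the rule on shared loci. Its locus, from the annotated start on chromosome 16, also holds 814 to 829 exonic bases of Cdip1, which is transcribed from the other strand, and reads of the genes there cannot be told apart without strand. Hmox2 was therefore fitted as 1 further gene by that locus, a choice made after the data were seen. The locus had 31.7 and 36.1 scaled FPKM in the knockout libraries, against 33.7 and 38.9 in the wild type libraries. The groups overlapped and all 4 values were close. The log2 difference was -0.10 with an SE of 0.19 and a 95% interval of -0.59 to 0.40 (limma adjusted p = 0.867), and it was 0.11 with values as deposited and 0.01 without wild type replicate 2. Hmox2 stood above Hmox1 in every library, by 2.84 and 2.50 times in knockout and 3.89 and 3.23 times in wild type.

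The spread between libraries of 1 genotype was unequal among the 9 genes. It was widest for Alas1 in wild type and Alad in knockout. For Fech the size of the log2 difference within a pair lay at the 34.6th percentile of all genes in knockout and the 45.1st in wild type. For Hmox2 it lay at the 30.6th and the 55.5th. The lowest percentiles of the 9 genes were those of Uros in knockout (13.9) and Alad in wild type (23.9). Within the wild type pair the size of the log2 difference lay above the 92nd percentile of all genes for Alas1, Uros, Urod and Ppox, and within the knockout pair it lay above the 91st percentile for Alad and Cpox.

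**Figure D4:**
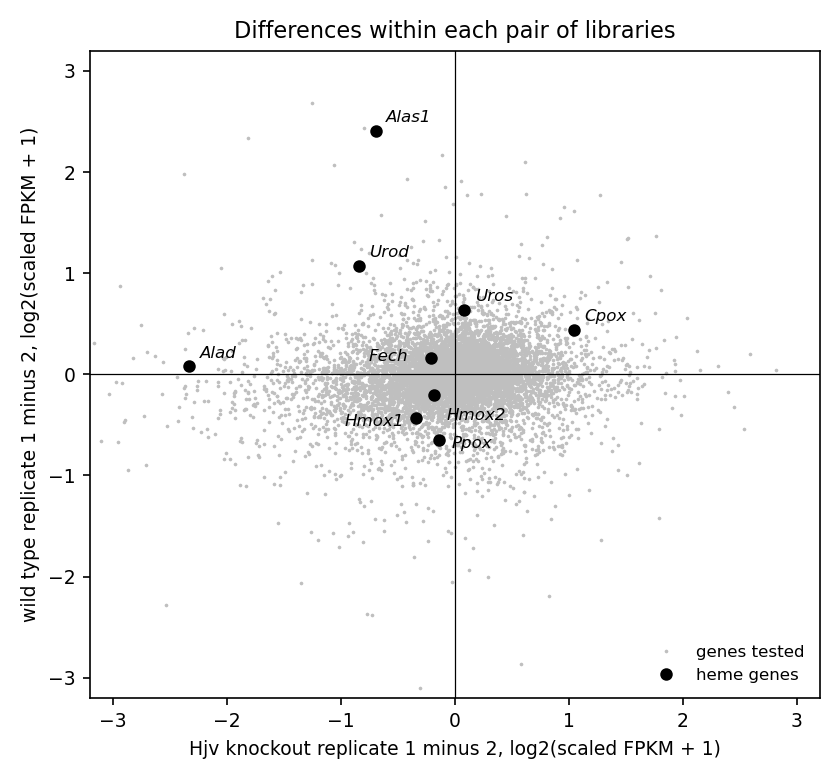
Log2 difference between the replicates of Hjv knockout (horizontal) and of wild type (vertical), both as replicate 1 minus replicate 2, for 7910 of the genes tested (gray; 16 lie outside the axes) and the 9 heme genes (black). Alas1 lies 2.41 above 0 on the wild type axis and Alad 2.33 below 0 on the knockout axis, while Fech and Hmox2 lie near the middle.

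Genes that feed the pathway were described as a list of precursor and heme transporters, mitochondrial iron importers and proteins that act on ALAS. Of 16 listed genes 14 were tested, and the median log2 difference was 0.17. In both knockout libraries 3 lay above and 2 below, beside 22.3% and 23.8% of all genes tested. Slc25a39, a mitochondrial carrier needed for glutathione import, had 54.5 and 152 scaled FPKM in the knockout libraries, against 44.1 and 46.1 in wild type. As for Alad, knockout replicate 2 stood far above the other libraries. Slc25a28, mitoferrin 2, which brings iron into mitochondria outside the erythroid lineage, had 5.99 and 9.63 in knockout, against 4.06 and 5.39 in wild type.

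Of the transporters, Abcg2, which exports porphyrins from cells, had 14.7 and 20.4 scaled FPKM in knockout, against 33.9 and 29.0 in wild type. Both knockout libraries lay below both wild type libraries, with a log2 difference of -0.82, an SE of 0.23 and an unadjusted p of 0.0174 (limma adjusted p = 0.419). It was the 1 gene of this list with an unadjusted p under 0.05. Tmem14c, which moves protoporphyrinogen into the mitochondrial matrix, had 79.6 and 86.4 in knockout, against 92.4 and 102 in wild type. Clpx, the unfoldase that activates ALAS in yeast and promotes its turnover in mammals, was named after its values were seen, with 33.5 and 43.7 in knockout against 51.1 and 23.3 in wild type. As for Alas1, wild type replicate 1 was the highest library and replicate 2 the lowest.

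Alas2, the erythroid form of the first enzyme, shared its assembled locus with the exons of Apex2 in 3 libraries, so it was not tested. That locus had 38.1 and 50.5 scaled FPKM in knockout, against 77.5 and 77.4 in wild type, and the library without the overlap was knockout replicate 1. Of 14 erythroid markers 0 could be tested and 4 had a used locus in any library. Among these was the beta globin gene Hbb-bs, which has a near-identical copy, with 83.5 in knockout replicate 1 and 79.2 in wild type replicate 1 and no used locus in either replicate 2. The share of blood RNA in these livers could therefore not be set beside the heme genes in all 4 libraries. In whole liver, fewer cells of a type and less RNA per cell cannot be told apart.

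Regulators of Alas1 transcription had 11 of 13 genes tested, with a median log2 difference of -0.03. In both knockout libraries 1 lay above and 3 below, beside 22.3% and 23.8% of all genes tested. Rxra, the retinoid X receptor that pairs with the xenobiotic receptors, had 38.0 and 69.0 scaled FPKM in knockout, against 20.4 and 20.2 in wild type. Its log2 difference was 1.30 with an SE of 0.32 and an unadjusted p of 0.0103 (limma adjusted p = 0.401). Ppara, the fatty acid receptor, had 41.2 and 40.02 in knockout, against 47.7 and 55.6 in wild type. Nr1i2, the pregnane X receptor, had 13.8 and 17.2 in knockout, against 17.8 and 17.8 in wild type.

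Foxo1, a fasting-activated factor and the third gene below, has no usable level in wild type replicate 1. There it was set at 22562 scaled FPKM by a locus of 64 bases listed at 1512530 FPKM. The longest loci over Foxo1 had 7.64 and 8.14 in knockout, against 9.69 and 11.2 in wild type. Ppargc1a, the coactivator PGC-1α that induces Alas1 in fasting, was named after its values were seen and had 3.63 and 3.00 in knockout, against 3.40 and 2.32 in wild type. Nr1d1, the heme-binding repressor Rev-erbα, shares its locus with Thra and was not tested. That locus had 14.0 and 56.5 in knockout, against 16.9 and 19.7 in wild type.

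Regulators of Hmox1 had 8 of 9 genes tested, with a median log2 difference of -0.15. In both knockout libraries 1 lay above and 2 below, beside 22.3% and 23.8% of all genes tested. Nfe2l2, which encodes the activator NRF2, had 20.5 and 20.5 scaled FPKM in knockout, against 32.2 and 26.7 in wild type, with a log2 difference of -0.50, an SE of 0.19 and an unadjusted p of 0.0486 (limma adjusted p = 0.446). The unadjusted p of Nfe2l2 stayed under 0.05 in 7 of 20 alternative limma fits and reached 0.317 without wild type replicate 1. Keap1, whose product sends NRF2 for degradation, lay the other way, with 8.91 and 12.6 in knockout against 5.51 and 5.90 in wild type. The unadjusted p of Keap1 was under 0.05 in 14 of 20 alternative limma fits, and not when either wild type library was left out. It was also not under 0.05 with GC correction, with or without the replicate block, where the log2 difference was 0.36. The same held with the highest locus (log2 difference 0.31) and the longest (1.44). In the main fit the log2 difference of Keap1 was 0.79 with an SE of 0.23 and an unadjusted p of 0.0195 (limma adjusted p = 0.419). Hif1a, the hypoxia factor, had 10.2 and 9.61 in knockout, against 13.1 and 11.3 in wild type. Bach1, the heme-sensing repressor of Hmox1, was named after its values were seen, and its groups overlapped with 8.28 and 7.73 in knockout against 9.19 and 8.00 in wild type.

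The targets of NRF2 lay on both sides. Of 10 listed, 7 were tested, with a median log2 difference of 0.16, and 0 had an unadjusted limma p under 0.05. There were 3 above and 2 below, beside 22.3% and 23.8% of all genes tested. Gclm, the modifier subunit of glutathione synthesis, had 60.2 and 53.9 scaled FPKM in knockout, against 48.1 and 45.0 in wild type. The glutathione transferase Gstm1, which has close paralogs that could share reads, had 793 and 663 in knockout, against 563 and 582 in wild type. Glutathione reductase (Gsr) had 26.5 and 26.2 in knockout, against 22.6 and 23.6 in wild type. The quinone reductase Nqo1 had 2.21 and 2.19 in knockout, against 2.85 and 3.22 in wild type, and the thioredoxin reductase Txnrd1 24.0 and 28.6 in knockout, against 32.8 and 30.6 in wild type.

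Beyond the oxygenases, 2 of 4 listed genes of heme breakdown were tested. There was 1 above and 0 below, beside 22.3% and 23.8% of all genes tested, and the median log2 difference was 0.59. That median over 2 genes was 0.18 with the GC correction and lay between 0.20 and 0.97 with 1 library left out. Blvrb, biliverdin reductase B, had 48.0 and 45.0 scaled FPKM in knockout, against 25.9 and 21.1 in wild type. The gap between the genotypes was wider than either pair's own spread, with a log2 difference of 0.96, an SE of 0.19 and an unadjusted p of 0.00467 (limma adjusted p = 0.389). For Blvrb the unadjusted limma p was 0.0870 with the GC correction and 0.0613 without wild type replicate 2. Por, the reductase that passes electrons to heme oxygenases and cytochromes P450, was named after its values were seen and overlapped, with 35.6 and 112 in knockout against 70.8 and 41.9 in wild type. Blvra, biliverdin reductase A, was not tested because less than 50% of a transcript was assembled in knockout replicate 1, at 49.0%. Its used loci had 9.42 and 8.26 in knockout, against 23.2 and 12.0 in wild type, in the direction opposite to Blvrb.

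The proteins that use heme were described last. Of 16 hepatic hemoprotein genes 13 were tested, with a median log2 difference of -0.21. There were 2 above and 5 below, beside 22.3% and 23.8% of all genes tested. Tdo2, the heme enzyme that opens tryptophan and whose saturation follows free heme in liver, had 401 and 543 scaled FPKM in knockout, against 1013 and 889 in wild type. Its log2 difference was -1.02 with an SE of 0.25 and an unadjusted p of 0.0102 (limma adjusted p = 0.401). The cytochrome b5 genes lay apart, with Cyb5a, the microsomal form, at 1737 and 1470 in knockout against 1333 and 784 in wild type. Cyb5b, the outer mitochondrial form, had 86.5 and 88.1 in knockout, against 136 and 134 in wild type.

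Among the cytochromes P450, Cyp7a1, the rate-limiting enzyme of bile acid synthesis, had 16.3 and 26.4 scaled FPKM in knockout, against 6.03 and 12.4 in wild type. Its log2 difference was 1.17 with an SE of 0.40 and an unadjusted p of 0.0355 (limma adjusted p = 0.437). Cyp51, the sterol demethylase, had 30.5 and 29.7 in knockout, against 47.1 and 43.6 in wild type. Cyp2b10 and Cyp3a11, drug-inducible genes named after their values were seen, had groups that overlapped. Cyp2b10 had 32.5 and 8.83 in knockout against 63.3 and 23.8 in wild type, and Cyp3a11 had 880 and 251 in knockout against 1345 and 754 in wild type.

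**Figure D5:**
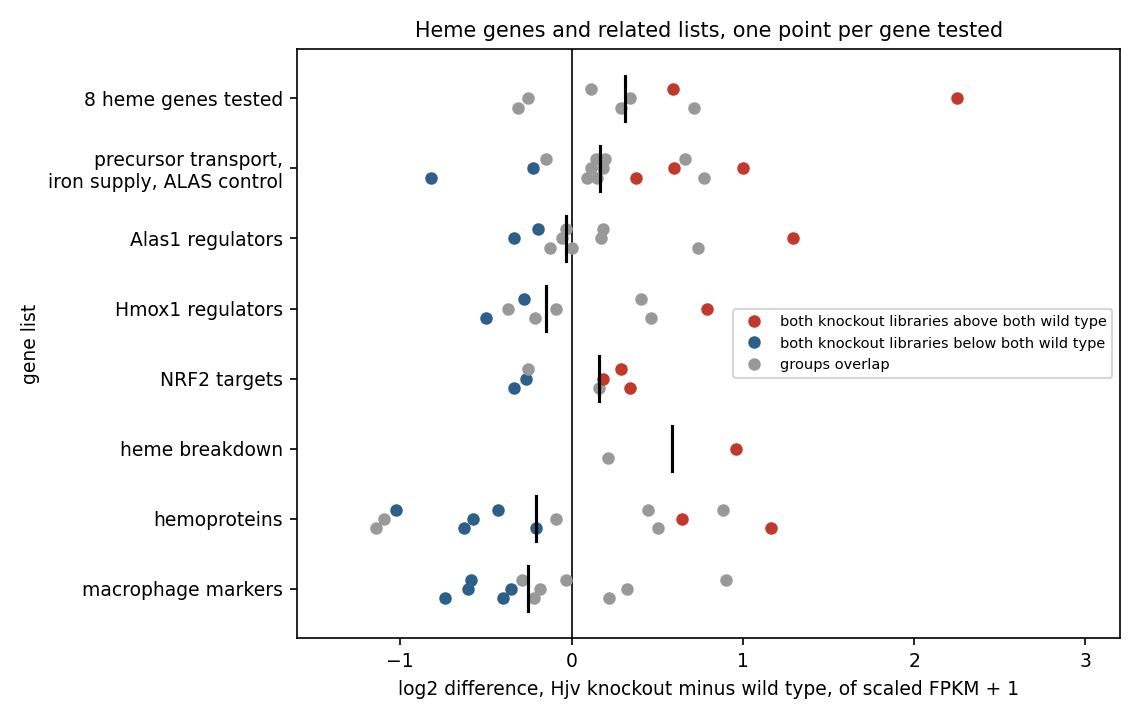
Log2 difference between Hjv knockout and wild type for each gene tested, 1 row per list, with red for both knockout libraries above both wild type libraries, blue for both below, gray for overlap and a bar at the list's median. The 8 heme genes have 2 red points and no blue one, and the hemoproteins 2 red and 5 blue. Of all genes tested, 22.3% would be red and 23.8% blue. In the row of the Alas1 regulators 1 gene (Foxo1) lies off the axis to the left.

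Liver macrophages are known for high Hmox1, and their markers were measured beside Hmox1. Of 13 markers 12 were tested, with 0 above and 5 below in both knockout libraries and a median log2 difference of -0.25. Of all genes tested, 22.3% lay above and 23.8% below. The macrophage median was -0.01 without knockout replicate 1 and -0.50 without knockout replicate 2. The summed level of the 12 was 151 and 216 scaled FPKM in knockout, against 196 and 230 in wild type. Replicate 2 was above replicate 1 in each genotype, as for Hmox1. The part of macrophage RNA in the Hmox1 values was not tested.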

How the data were processed

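TruSeq libraries of liver RNA (2 HJV_KO, 2 WT) were run on a HiSeq 2000, per the labels' protocols. FastQC, TopHat and Cufflinks were used by the authors, with the build mm9, per the submitters' processing notes, which give no versions. The coordinates lie on GRCm38: the last Y locus of wild type replicate 1 ends at 90767996. Of loci over 2000 bases, 13.5% to 33.2% end within 20 bases of a GENCODE M21 gene end, against 0.226% to 0.336% after a shift by 100 kb. The deposited values are FPKM with confidence bounds, by the authors from Cufflinks, for loci assembled separately in each library and without gene names.

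Loci were assigned to 21655 coding genes by exon overlap. A locus was not used where a second gene held over 25% as many of its exonic bases, or where its FPKM exceeded 3 times the midpoint of its bounds. Loci of 1 gene were averaged with their exonic bases as weights, and the mean was used where they spanned at least 50% of a coding transcript. This gave 11505 genes in at least 1 library and 7949 in each of the 4. Median-of-ratios scaling followed (factors 1.20 and 0.955 in HJV_KO, 0.935 and 0.915 in WT). Genes that reached 1 FPKM in 2 or more libraries were compared on log2(scaled FPKM + 1), which understates the change of low genes, with limma 3.58.1 in R 4.3.3. The test was two-sided and used a mean-variance trend. It had 2 residual degrees of freedom and 2.88 prior ones. P-values were adjusted by Benjamini-Hochberg over all genes, with a threshold of 0.05. The fit was also run on simulated normal values, with an SD set by level alone and no library or GC effect. That run therefore does not show its error rate on these libraries. An exact permutation test of 2 libraries against 2 cannot give a p under 0.333.

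For the 9 genes, 20 of the 36 longest loci have an FPKM outside their own bounds, and the half-widths of the bounds cover counting error only. Python 3.11.15 and matplotlib 3.10.9 drew the figures.

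Named genes were the 9 genes, the checks of the labels, up to 3 genes per direction of each list with groups that do not overlap, by smallest unadjusted p, and the 3 genes closest to Alas1 and to Hmox1. Values of 1 listed gene are not reported here. The genes and lists were chosen with earlier results of these data known. Alternatives were the scaling, GC correction, pseudocount, filter, variance model, replicate block, value per gene, loci used, span and each library left out.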

Additional observations from a re-analysis of the deposited data

How the results depend on the processing

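Each heme gene was recomputed under 20 alternatives (19 for Ppox, which the filter at 5 FPKM removes; those for Hmox2 were added after the data were seen). Fech, Hmox1, Ppox, Uros and Alad stayed above 0 in all of them. With a library left out, Alas1 ran from -0.489 (without wild type replicate 2) to 1.92, Urod from -0.852 to 0.221 (without wild type replicate 1; 0.106 without knockout replicate 1), Cpox from -0.774 to 0.271 (without knockout replicate 2) and Hmox2 from -0.197 to 0.0069 (without wild type replicate 2). Hmox2 was 0.108 with values as deposited. Alad passed the adjusted threshold only without knockout replicate 1. The median of the 8 tested kept its sign, at 0.15 to 0.50.

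Adjusted calls over all genes numbered 0, except 1 with values as deposited and 1 to 485 with a library left out, the most without knockout replicate 1 and 11 without knockout replicate 2. Unadjusted calls numbered 886, against 590 with all loci, 259 to 2092 with a library left out, and 865 higher and 139 lower with values as deposited, where the median of all genes was 0.19 in place of 0.02.

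The median of the Hmox1 regulators, -0.15, was 0.0233 with values as deposited, -0.219 with quantile normalization, -0.0909 with GC correction, with or without the replicate block, -0.0896 with the filter at 5 FPKM, 0.0737 with the highest locus, -0.0706 with the longest, -0.117 with the midpoint of the bounds and -0.0921 to -0.0065 with a library left out, so it has no stable direction. That of the NRF2 targets, 0.16, was 0.366 as deposited, -0.0609 with a span of 25% and -0.0849 to 0.174 with a library left out. That of the hemoproteins, -0.21, was -0.0025 as deposited, -0.11 with quantile normalization, -0.31 with a span of 25% and -0.31 to -0.11 with a library left out. The cause was not tested.

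Same-numbered libraries deviated with a correlation of 0.08 over 2 pairs, which cannot show whether the numbers mark a batch. The labels do not say that they do, so the main fit has no block. Used loci per gene numbered 2.15 in knockout and 1.88 in wild type in replicate 1, against 1.48 and 1.72 in replicate 2. A batch shared by number was not tested. With the replicate block 0 genes were called, 851 had an unadjusted p under 0.05, and Alad had an adjusted p of 0.453, so no call changed. Unadjusted limma p-values under 0.05 of Abcg2, Tdo2, Cyb5b and Cyp51 were lost when either wild type library was left out. Tdo2 lost its own in 3 of 20 alternatives. With values as deposited the limma p was 0.133 for Cyb5b and 0.187 for Cyp51. With GC correction and the replicate block it was 0.0502 and 0.0625, and with quantile normalization 0.0540 for Cyp51. That of Rxra was lost with the midpoint of the bounds. That of Cyp7a1 was lost with all loci, without the first wild type library or without the second knockout library.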

Other observations

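Of the 485 genes past the adjusted threshold without knockout replicate 1, Alad was the 1 heme gene, and Slc25a39, Rxra and the macrophage gene C1qc were the others in the lists described. That fit calls genes whose level in knockout replicate 2 departs from wild type. A high level of these 4 genes in that library is therefore largely set by the selection. C1qc, named after its values were seen, had 10.5 and 32.1 scaled FPKM in the knockout libraries, against 8.10 and 10.998 in wild type. Without wild type replicate 2 the 1 gene called was Foxo1, through the short locus of wild type replicate 1.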
